A study of Mus musculus with 16 samples.

Results

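Transient receptor potential (TRP) channels are cation channels of the cell surface and of internal membranes, and 10 of their genes were described here in fetal pancreas and adult islets of mice with and without Tff2 in the Pdx1 lineage. The 10 genes, Trpm2, Trpm3, Trpm4, Trpm5, Trpm7, Trpc1, Trpv1, Trpv2, Trpv4 and Trpv6, were taken by symbol from the 24091 genes of the count tables. The genes, and the marker and partner lists set beside them, were drawn up with earlier results of all these libraries known, and the stated rule names 1 of them, that Trpm2 was higher in knockout islets. The knockout comparison in islets is therefore a description for these genes and carries no p-value. The rule names no result of the comparison in fetal pancreas or between tissues.

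The study sequenced polyadenylated RNA from 16 animals, 1 library each. Whole pancreata were dissected on embryonic day 16.5 (E16.5) from 3 control embryos (Tff2fl/fl) and 3 knockout (KO) embryos (Pdx1:Cre;Tff2fl/fl), and islets were isolated with collagenase and picked by hand from 5 control and 5 KO male mice of the same 2 genotypes at 60 weeks of age. Both groups carry floxed Tff2 alleles, so that the KO animals differ by the Cre transgene as well as by the loss of Tff2. Pdx1:Cre acts in the pancreatic lineage, which leaves nerve, vessel, blood and connective tissue cells outside the cells in which it is meant to delete Tff2. Tff2 itself had 406 to 848 reads in E16.5 controls and 27 to 147 in E16.5 KO, and 25 to 135 reads in control islets and 0 to 16 in KO islets. KO 18, the library with 147 Tff2 reads, also differed from the other pancreata in Xist (1.56 CPM against 1090 to 1810). Its Ddx3y was at 134 CPM, against at most 0.173 in the others. These levels are near those of the islets from male mice (Xist at most 0.467, Ddx3y 108 to 130 CPM). By these 2 genes KO 18 is male and the other pancreata, all controls among them, are female. The liver gene Alb was at 616 CPM in KO 01 against 26.9 to 101 in the other pancreata. Library totals ran from 14866194 to 22699934 reads at E16.5 and from 22595400 to 32385042 in islets. Defining markers fitted the labelled tissues: 6 acinar genes summed to 47000 to 55900 CPM in E16.5 controls and 240 to 881 in control islets, and 8 beta cell genes to 1080 to 1510 and 129000 to 155000. CPM here are read counts per gene brought to a common library size by TMM scaling within a tissue, and RPKM are CPM divided by the gene length in kb that the tables give, so that only RPKM compare levels between genes. All samples are bulk tissue, in which fewer cells of a type and less RNA per cell cannot be told apart.

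TRP channels open to temperature, stretch, lipids, nucleotides or internal calcium and let sodium, calcium and in some cases magnesium through. In beta cells Trpm4 and Trpm5 carry sodium when cytosolic calcium rises and so add to depolarisation, Trpm2 is a calcium channel gated by ADP-ribose, Trpm3 is opened by pregnenolone sulphate and heat, and Trpm7 joins a magnesium-permeable channel to a kinase. Trpc1 assembles with other TRPC subunits downstream of phospholipase C. Trpv1, Trpv2 and Trpv4 respond to heat, chemical or mechanical stimuli, and Trpv6 is a calcium-selective channel of absorptive epithelia.

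The genes are spread over 8 chromosomes (mm10, positions of the tables). Trpm2 lies on chromosome 10 (77907722 to 77969872, minus strand), Trpm5 on chromosome 7 (143071529 to 143094642, minus strand) and Trpv2 on chromosome 11 (62574486 to 62600305, plus strand), which it shares with Trpv1 (73234149 to 73261322, plus strand). Trpm4 is on chromosome 7 (45303155 to 45333780, minus strand) and overlaps the pseudogene Rpl14-ps1 on the other strand. Since no source used here says whether strand entered the counting, reads of that pair cannot be told apart. The Trpm3 gene on chromosome 19 (22139117 to 22989884, plus strand) contains Mir204, which had no reads. Trpm7 lies on chromosome 2 (126791558 to 126876261, minus strand), Trpc1 on chromosome 9 (95705067 to 95750358, minus strand), Trpv4 on chromosome 5 (114622154 to 114658421, minus strand) and Trpv6 on chromosome 6 (41620619 to 41636405, minus strand).

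RefSeq promoters (GRCm38.p6) matched 9 of the 10 genes. Shown are the 250 bases before the RefSeq start of the 3 genes on which the results turn most. These genes are Trpm2, higher in KO islets, Trpm5, the most abundant of the 10 in islets, and Trpv2, which rose in KO pancreata. Capitals mark matches, on either strand, to TATAAA (called the TATA box), GGGCGG (called the GC box) and CANNTG (the E-box), which do not overlap in these windows, and the rest is in lower case. The motif CCAAT, the homeodomain motif TAATTA, the cAMP response element TGACGTCA and the MARE core TGCTGA were searched as well and are in none of the 3. The positions are chr10:77969873-77970122 (minus strand), chr7:143094643-143094892 (minus strand) and chr11:62574236-62574485 (plus strand). In the GENCODE annotation the Trpm2 gene runs to 77970563, so by it the Trpm2 window lies within the gene.
Trpm2: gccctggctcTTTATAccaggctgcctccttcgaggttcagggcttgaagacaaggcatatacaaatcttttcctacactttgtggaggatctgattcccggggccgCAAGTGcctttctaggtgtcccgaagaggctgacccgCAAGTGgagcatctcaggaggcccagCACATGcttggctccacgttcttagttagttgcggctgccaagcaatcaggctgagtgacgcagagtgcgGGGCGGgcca
Trpm5: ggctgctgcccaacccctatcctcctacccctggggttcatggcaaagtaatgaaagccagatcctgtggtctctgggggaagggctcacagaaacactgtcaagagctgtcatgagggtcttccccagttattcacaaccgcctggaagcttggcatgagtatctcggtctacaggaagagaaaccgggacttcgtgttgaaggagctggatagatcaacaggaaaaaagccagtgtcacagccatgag
Trpv2: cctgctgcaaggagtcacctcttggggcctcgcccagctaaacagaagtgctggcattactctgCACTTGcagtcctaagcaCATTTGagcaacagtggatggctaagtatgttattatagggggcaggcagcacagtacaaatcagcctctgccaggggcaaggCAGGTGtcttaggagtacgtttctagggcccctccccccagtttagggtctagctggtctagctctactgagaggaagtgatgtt
The Trpm2 window held 1 TATA box, 1 GC box and 3 E-boxes, the Trpv2 window, for the first of its RefSeq starts, 3 E-boxes, and the Trpm5 window none of these letters. Over 32851 mouse promoter windows of the same length, 12.4% held the TATA box, 32.7% the GC box, 66.2% an E-box, 33.8% the CCAAT motif, 4.84% the homeodomain motif, 1.55% the cAMP response element and 16.1% the MARE core. GC content was 56.8% for Trpm2, 52.8% for Trpm5 and 53.2% for Trpv2, against a median of 52.4%. A match of letters is a description, not a site in use.

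Which of the channels each tissue expresses was read first from the controls. In control islets Trpm5 was the most abundant, at 33.8 ± 1.59 RPKM (SD, n = 5), and made up 51.8% to 55.5% of the summed RPKM of the 10 genes. Trpm7 followed at 11.7 ± 0.847 and Trpc1 at 11 ± 0.693 RPKM, whose libraries overlapped. Trpm3 at 2.66 ± 0.238 and Trpm4 at 2.37 ± 0.221 RPKM also overlapped, and Trpm2 came next at 1.44 ± 0.103 RPKM, below every library of Trpm4. Below these stood the vanilloid group: Trpv2 at 0.301 ± 0.0413 and Trpv4 at 0.230 ± 0.0826 RPKM, which overlapped, and Trpv6 and Trpv1 with 6 and 5 reads over all 5 libraries (0.0455 and 0.0379 CPM from the pooled totals, exact Poisson 95% intervals 0.0167 to 0.0990 and 0.0123 to 0.0884, counting error only).

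In E16.5 controls the order was another one. Trpm7, which most cells express, stood first at 19.8 ± 1.41 RPKM (SD, n = 3) and took 55.2% to 59.1% of the sum. Trpm4 at 6.04 ± 0.286 RPKM stood above Trpm5 at 3.85 ± 0.279, with no overlap of libraries. Trpv4 at 1.50 ± 0.252 and Trpc1 at 1.43 ± 0.0631 RPKM overlapped, as did Trpv2 at 0.691 ± 0.0602 and Trpv6 at 0.610 ± 0.113. Trpm2 at 0.250 ± 0.0514, Trpm3 at 0.0717 ± 0.00828 and Trpv1, with 3 reads over 3 libraries, closed the order. The 2 calcium-gated channels thus changed places between the tissues: the Trpm5 to Trpm4 ratio per length was 0.638 ± 0.0565 in E16.5 controls and 14.3 ± 0.898 in control islets. The 10 genes summed to 33.2 to 35.9 RPKM in E16.5 controls and 60.0 to 67.3 RPKM in control islets. Each sum rests on scaling within its own tissue, so the sums are not on a common scale.

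**Figure D1:**
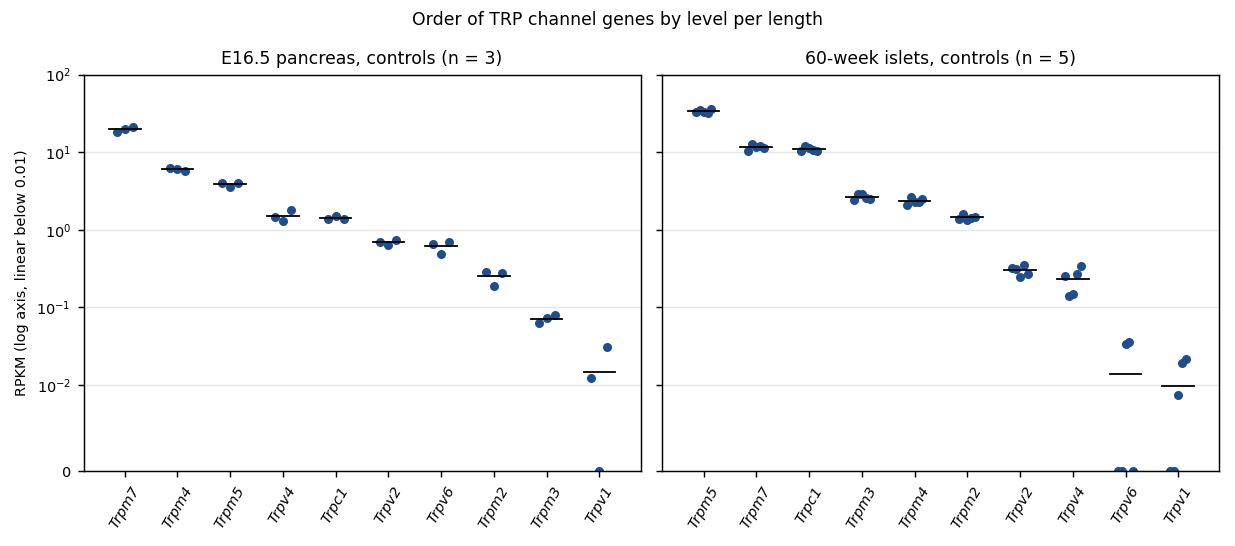
Level of each TRP gene per length (RPKM, log axis, linear below 0.01) in the control libraries of E16.5 pancreas (n = 3) and 60-week islets (n = 5). Points are libraries and lines are means. Trpm7 leads at E16.5 and Trpm5 in islets, and Trpv1 is last in both.

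Control islets were then tested against control E16.5 pancreata in a fit of these 8 libraries. The CPM printed beside the folds are scaled over all 16 libraries, so that ratios of their means differ slightly from the fitted folds. Tissue, age, preparation and sex cannot be told apart in this comparison. By Xist and Ddx3y the E16.5 controls are female, and the islets are from males. Of the 15388 genes tested edgeR called 86.5%, 41.8% higher in islets and 44.7% lower. A call by itself therefore says little about a channel. All 9 channels tested passed, 4 higher in islets and 5 lower. Their median log2 fold change was -0.54, against -0.04 over all genes tested.  Trpm3 had the largest rise of the 10, from 0.933 ± 0.108 to 41.5 ± 3.68 CPM (SD, n = 3 and 5), 43.2-fold or 5.43 in log2 (SE 0.132, edgeR adjusted p = 1.09e-12). Trpm5 was 10.2-fold higher (16.7 ± 1.19 to 176 ± 8.27 CPM), Trpc1 8.92-fold (5.82 ± 0.268 to 53.6 ± 3.34 CPM) and Trpm2 6.64-fold (2.30 ± 0.468 to 15.9 ± 1.12 CPM, log2 2.73, SE 0.136, edgeR adjusted p = 9.37e-10). No library of one tissue reached into the range of the other for any of these.

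The 5 channels that were lower in islets spanned a wide range. The smallest difference was that of Trpm7, at a log2 fold change of -0.54 (145 ± 10.3 to 103 ± 7.39 CPM). Trpv2 followed at -0.99 (3.80 ± 0.326 to 1.99 ± 0.273 CPM) and Trpm4 at -1.13 (23.2 ± 1.10 to 10.9 ± 1.01 CPM). Trpv4 fell by 2.49 (5.22 ± 0.869 to 0.958 ± 0.345 CPM) and Trpv6 by 4.92 (SE 0.509), the latter with 25 to 42 reads per library in E16.5 controls and 0 to 3 in control islets. Trpv6 is known from absorptive epithelia. With CPM scaled within each tissue, the fibroblast list summed to 11100 to 13200 CPM at E16.5 and 99.0 to 125 CPM in islets. The duct list likewise summed to 963 to 1010 and 58.2 to 72.0 CPM. The part of these cells in the lower levels was not tested.

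Of the other 18 TRP superfamily genes, 12 were tested between tissues, 5 were higher in islets, 6 lower and 1 (Mcoln3) did not pass. Pkd2, a channel of the primary cilium and endoplasmic reticulum, was the most abundant of them per length in both tissues (27.9 ± 0.738 RPKM in E16.5 controls and 17.2 ± 1.40 in control islets), and the lysosomal channel Mcoln1 was next (6.5 ± 0.510 and 12.3 ± 0.550 RPKM). After these came Pkd2l2 at E16.5 (1.49 ± 0.0239 RPKM) and Trpc4, a partner of Trpc1, in islets (2.10 ± 0.118 RPKM, log2 fold change 2.29 between tissues). Trpa1, named here after its values were seen, had 4 to 5 reads per library in E16.5 controls and 51 to 82 in control islets. Trpc2 and Trpv5 had no reads in any library.

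**Figure D2:**
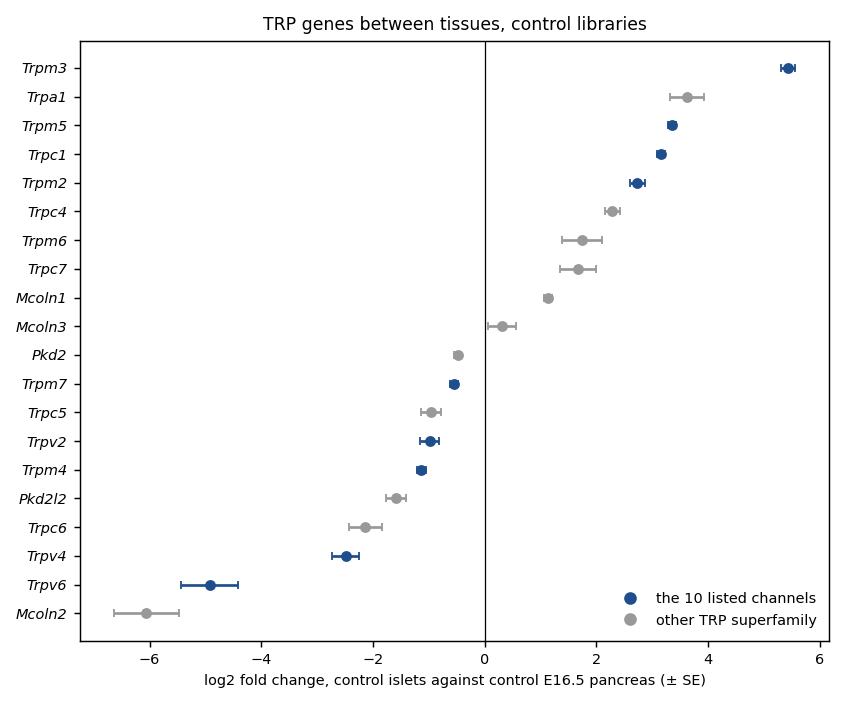
Log2 fold change of TRP genes in control islets against control E16.5 pancreas (± SE, edgeR), listed channels in blue and a selection of other superfamily members in grey. Trpm3 (5.43), Trpm5 (3.35), Trpc1 (3.16) and Trpm2 (2.73) lie to the right and Trpv6 (-4.92) far to the left; Mcoln2 rests on 1 read in control islets, so its size is not fixed by the data.

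In 60-week islets the comparison of genotypes asked what loss of Tff2 leaves in ageing islets. Trpm2 was higher in KO, by a modest fold, and for the 7 other channels tested the libraries of the groups overlapped. Trpm2 measured 14.1, 16.6, 13.8, 14.6 and 14.9 CPM in controls 052, 826, 829, 857 and 858, and 17.4, 18.9, 20.8, 19.6 and 19.9 CPM in KO 055, 122, 803, 812 and 845. Every KO library stood above every control, by the narrowest margin between KO 055 and control 826. The means were 14.8 ± 1.06 and 19.3 ± 1.27 CPM (SD, n = 5 each), a log2 fold change of 0.38 (SE 0.0644) or 1.30-fold. It was 1 of 22 genes called by edgeR among 14219 tested (0.155%), and 1 of 16 called higher (0.113%), the 12th of those 16 by size of rise. Values of the groups did not overlap, with KO higher, for 111 genes (0.781%). These values chose the gene and support nothing further. The fold change held between 0.356 and 0.427 over 18 other settings, while the call was kept in 7 of them. It was lost when any 1 of 8 of the 10 libraries was left out, and kept without control 826 or KO 055.

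Trpm5, the leading channel, measured 159, 170, 162, 157 and 175 CPM in the controls and 112, 180, 134, 176 and 144 CPM in the KO libraries, in the same order of animals. The KO spread (SD 28.6) was wider than the control spread (SD 7.75) and included it, and the log2 fold change was -0.14 (SE 0.109). Its share of the 10 genes' RPKM was 43.4% to 55.4% in KO islets. Trpm4, its closest relative, was at 10.2 ± 0.951 CPM in controls and 9.38 ± 0.304 in KO, with overlapping libraries.

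Trpm3 was at 38.7 ± 3.47 and 38.9 ± 4.85 CPM, Trpm7 at 95.7 ± 6.93 and 95.8 ± 3.37 CPM and Trpc1 at 50 ± 3.16 and 50.4 ± 1.70 CPM in control and KO islets. Their log2 fold changes were 0.00, 0.00 and 0.01, with 95% intervals of -0.184 to 0.194, -0.109 to 0.111 and -0.092 to 0.113. Those of Trpm7 and Trpc1 were the narrowest of the 8 channels tested. The sparse vanilloid channels had wider ones. Trpv2 at 1.85 ± 0.254 and 1.84 ± 0.298 CPM had an interval of -0.349 to 0.327, and Trpv4 at 0.893 ± 0.321 and 0.746 ± 0.222 CPM one of -0.866 to 0.376. Trpv1 (5 reads over the controls and 11 over the KO libraries) and Trpv6 (6 and 3 reads) were too low to be tested. The median of the 8 tested was -0.01, against 0.00 over all genes.

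Markers of cell types that the islet samples could hold had sums that overlapped between the groups. Macrophages are known to express Trpm2, and their 9 markers summed to 118 to 140 CPM in control and 121 to 148 CPM in KO islets. Of these 9, 0 were called and 6 had fold changes above 0. The 8 beta cell markers summed to 129000 to 155000 and 119000 to 147000 CPM, with 0 of 8 called and 0 above 0. No other marker list had a gene called in islets. By edgeR 0.155% of all genes tested were called, so counts of 0 say little here. The part of these cells in the Trpm2 value was not tested.

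The genes around the channels did not pass in islets either, where edgeR called 0.155% of all genes tested. Counts of 0 in lists this short therefore say little about these genes. Of the enzymes that make or remove ADP-ribose, the ligand of Trpm2, 0 of 8 passed, and Parp1 and Nudt9 were the most abundant per length. The counts were 0 of 8 for store-operated entry, led by Stim1 and Itpr1, 0 of 8 for phospholipase C and Gq, led by Gna11 and Gnaq, and 0 of 9 for calcium binders and scaffolds. Unadjusted p-values under 0.05 numbered 1, 1, 1 and 0 in these 4 lists, against 7.18% of all genes tested. Among the other 18 TRP genes, 11 were tested in islets and 0 passed by edgeR, with 2 at an unadjusted p under 0.05, Trpm6 (-0.55, SE 0.240) and Mcoln1 (0.12, SE 0.0510), both named after their values were seen.

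**Figure D3:**
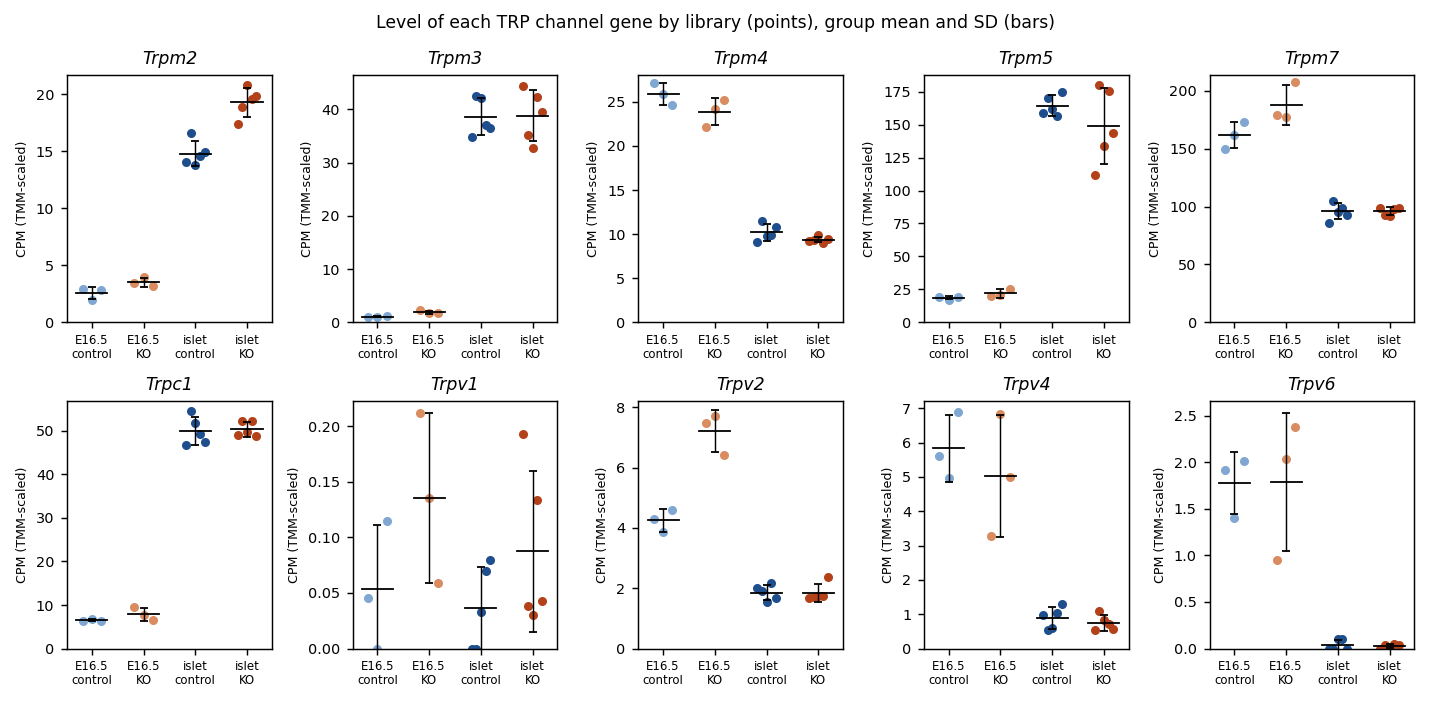
CPM (TMM-scaled within a tissue) of each of the 10 TRP genes in every library, grouped by tissue and genotype (n = 3, 3, 5 and 5). Points are animals, bars are mean and SD, and each panel has its own scale. The KO islets lie above the control islets for Trpm2 (17.4 to 20.8 against 13.8 to 16.6 CPM), and KO pancreata above controls for Trpv2 (6.42 to 7.72 against 3.86 to 4.60 CPM).

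In E16.5 pancreas the same contrast asked how loss of Tff2 alters the forming organ. Of the 9 channels tested, 1 rose, Trpv2, and 0 fell; edgeR called 3.75% of 14914 genes higher and 2.68% lower, 6.43% in all. Trpv2 measured 4.29, 3.86 and 4.60 CPM in controls 02, 08 and 13 (94, 69 and 80 reads) and 7.47, 7.72 and 6.42 CPM in KO 01, 18 and 19 (141, 114 and 108 reads). Each KO library exceeded each control. The means were 4.25 ± 0.370 and 7.20 ± 0.691 CPM (SD, n = 3 each), 1.69-fold or 0.76 on the log2 scale (SE 0.147, edgeR adjusted p = 0.0300). The fold change lay between 0.695 and 1.153 in 14 other settings, and the call was kept in 10 of them, with adjusted p from 0.00208 to 0.150. It was lost without control 02 (0.150), 08 (0.119) or 13 (0.0762) and without KO 18 (0.0548). Without control 02 or 13 edgeR called 0 genes of the whole table, and without 08 few. The losses without a control are thus not particular to Trpv2.

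Markers of other cells moved in the same pancreata, and their part in the Trpv2 value was not tested. Trpv2 is known from macrophages, neurons and muscle. The 9 macrophage markers summed to 450 to 541 CPM in controls and 435, 813 and 539 CPM in KO 01, 18 and 19, and 1 of 9 rose (Lyz2, 0.95). The 6 neuron markers summed to 56.8 to 63.4 CPM in controls and 573, 286 and 158 CPM in the KO libraries, and 6 of 6 rose. The 5 smooth muscle markers summed to 166 to 204 and 264 to 390 CPM, and 4 of 5 rose. In the other direction, 7 of 8 beta cell markers fell (1080 to 1510 against 495 to 681 CPM), as did 10 of 16 pan-epithelial markers (2900 to 3360 against 2330 to 2430 CPM). Summed levels of further lists did not overlap either: neutrophil (13.1 to 24.7 against 27.6 to 112 CPM), erythroid (83.6 to 119 against 129 to 237), glia (35.7 to 38.5 against 41.3 to 44.1) and sensory neuron markers (8.46 to 10.3 against 12.5 to 35.0) were higher in KO. Endothelial (706 to 897 against 542 to 698 CPM), duct (963 to 1010 against 609 to 784), acinar (47000 to 55900 against 22500 to 42500) and the other endocrine markers were lower.

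The interaction of tissue and genotype was called for Trpv2, at a log2 difference of -0.75 (SE 0.216, edgeR adjusted p = 0.0441) for islets minus pancreas. It contains the islet contrast, and edgeR called 7.19% of 15823 genes in it. Adjusted p was 0.0338 to 0.0637 over 6 other settings and under 0.05 in 4 of them. Trpm3 missed the threshold in the same fit, at -0.84 (SE 0.247, edgeR adjusted p = 0.0512), and passed in 3 of 6 other settings (adjusted p 0.0348 to 0.346). The other 7 of the 9 channels did not pass.

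The remaining channels of the fetal pancreas did not pass by edgeR. Trpm3 measured 0.913, 1.06 and 1.15 CPM in controls 02, 08 and 13 and 2.22, 1.69 and 1.66 CPM in KO 01, 18 and 19, from 19 to 20 and 25 to 42 reads. All KO values were higher, and the log2 difference was 0.84 (SE 0.242, edgeR adjusted p = 0.0762). Under pan-epithelial scaling and in a fit of all 16 libraries its edgeR adjusted p was 0.00484 and 0.0252. The former setting called 9558 genes, and the latter also called more than the main fit. Passing there says little about Trpm3 by itself. Trpm2 measured 2.92, 1.96 and 2.82 CPM in controls and 3.44, 3.93 and 3.15 CPM in KO, at 0.44 (SE 0.212, edgeR adjusted p = 0.236, 95% interval -0.046 to 0.933), on 35 to 65 reads per library. All 3 KO values were above all 3 controls, which holds for 15.0% of all genes tested. The islet value of 0.38 chose the gene and adds no support here.

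Trpm7 was at 162 ± 11.5 and 188 ± 17.1 CPM (log2 0.22, SE 0.0837, edgeR adjusted p = 0.154). For Trpm5 the means were 18.7 ± 1.36 and 21.8 ± 3.18 CPM (0.22, SE 0.119, edgeR adjusted p = 0.282), with KO 19 at 25.5 CPM and KO 01 at 19.7 CPM, just over the highest control at 19.5. Tuft cells are known for Trpm5, and their 6 markers summed to 50.7 to 63.8 CPM in controls and 90.8 to 109 CPM in KO. Of the 5 tested, 1 was called, Dclk1 (1.30), which went from 23.4 ± 2.43 to 57.6 ± 18.6 CPM. Pou2f3 (1.10 to 1.90 against 1.27 to 2.62 CPM), Avil, Alox5ap and Ptgs1 overlapped between the groups. Il25 had 1 read in controls and 2 in KO. The part of tuft cells in the Trpm5 values was not tested. Trpc1 overlapped between groups, at 6.5 ± 0.288 and 7.91 ± 1.48 CPM (0.29, SE 0.160, edgeR adjusted p = 0.302), where KO 01 alone reached 9.48 CPM. Values of the groups did not overlap, with KO higher, for 5 of the 9 tested, Trpm2, Trpm3, Trpm5, Trpm7 and Trpv2, against 15.0% of all genes tested with KO higher and 16.1% with KO lower.

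Trpm4 was at 26.0 ± 1.23 and 23.9 ± 1.54 CPM (log2 -0.12, SE 0.0811), Trpv4 at 5.83 ± 0.978 and 5.04 ± 1.78 CPM (-0.22, SE 0.265) and Trpv6 at 1.78 ± 0.330 and 1.79 ± 0.743 CPM (-0.01, SE 0.347), with overlapping libraries and signs that turned under pan-epithelial scaling (0.276, 0.177 and 0.386). Their edgeR adjusted p-values were 0.385, 0.639 and 0.993. KO 01 held the lowest value of all 6 pancreata for each of the 3 channels, 22.2 CPM for Trpm4, 3.28 for Trpv4 and 0.953 for Trpv6. Trpv1 had 0 to 2 reads in control and 1 to 4 in KO libraries and was not tested. The median over the 9 tested channels was 0.22, against 0.00 over all genes, and 6 of 9 lay above 0. Scaling to pan-epithelial genes moved the median of all genes to 0.394, so that those values are read against that shift.

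**Figure D4:**
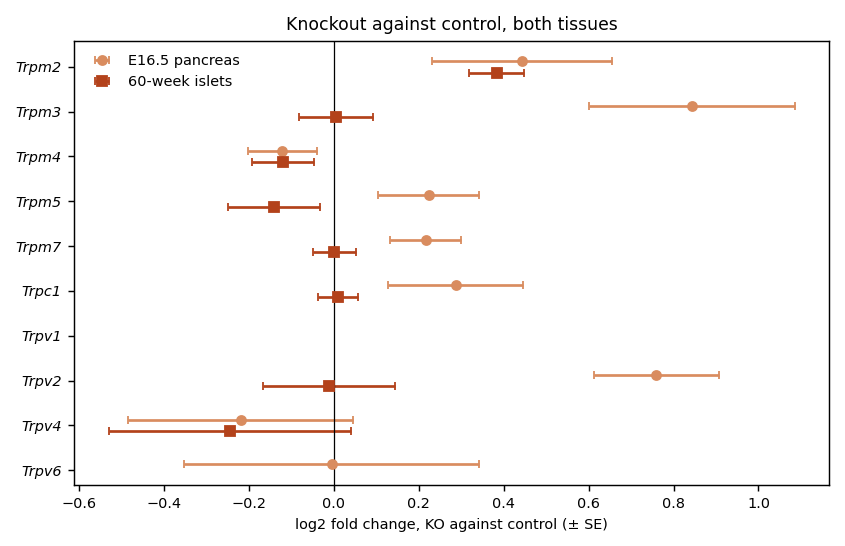
Log2 fold change of KO against control (± SE, edgeR) for the 10 TRP genes in E16.5 pancreas (circles) and 60-week islets (squares). Trpm2 lies at 0.44 at E16.5, where it was not called, and at 0.38 in islets, the value that chose it. Trpv2 lies at 0.76 at E16.5 and -0.01 in islets. Trpv1, and Trpv6 in islets, have no value because they were too low to test.

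Around the channels, 2 genes were called in KO pancreata, both lower, where edgeR called 6.43% of all genes tested. At that share, counts of 0 or 1 in lists this short say little about these genes. Macrod1, which removes ADP-ribose from proteins, fell from 26.0 ± 1.38 to 17.0 ± 2.83 CPM (SD, n = 3 each), or by -0.62 in log2 (SE 0.126, edgeR adjusted p = 0.0351), as 1 of 8 in the ADP-ribose list. Abcc8, the sulphonylurea receptor that also associates with Trpm4, fell from 94.1 ± 1.80 to 56.1 ± 8.55 CPM, -0.74 (SE 0.102, edgeR adjusted p = 0.0176), as 1 of 9 tested calcium binders and scaffolds. Abcc8 is a beta cell gene, and the beta cell markers fell in the same libraries as given above. Both calls were lost without any 1 of the 3 controls (adjusted p of at most 0.165 for Macrod1 and 0.122 for Abcc8), and that of Macrod1 also under pan-epithelial scaling (-0.216, adjusted p = 0.223). Of the store-operated list 0 of 8 passed, with Itpr3 and Orai3 the most abundant per length, and of the phospholipase C and Gq list 0 of 8, with 1 gene at an unadjusted p under 0.05 in each, below the share over all genes (25.4%). Of the other 18 TRP genes, 10 were tested at E16.5 and 0 passed by edgeR. An unadjusted p under 0.05 was found for 3 of the 10, Trpc4 (0.50), Trpc5 (0.41) and Mcoln3 (-0.69), named after their values were seen, against 25.4% of all genes tested. Groups did not overlap for 2 of the 10 with KO higher and for 1 with KO lower, near the shares over all genes given above.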

How the data were processed

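Polyadenylated RNA of 6 fetal pancreata and 10 islet samples was sequenced, per the labels' protocols. The authors deposited raw read counts per gene, 1 column per animal, with a gene length in kb as a further value of another kind. Tools listed in the submitters' processing notes, without roles, are HTSeq 0.11.1, STAR 2.6.0, Trimmomatic and edgeR, on mm10. No label or header states the annotation version or the use of strand.

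Counts were fitted over the whole table with edgeR 4.0.16 in R 4.3.3 (TMM, filterByExpr, quasi-likelihood F test), with Benjamini-Hochberg adjustment over all genes tested and a threshold of 0.05. Each tissue was fitted alone, control tissues were compared in a fit of 8 libraries, and the interaction used all 16. SE is the fold change divided by the root of F, and 95% intervals follow from it and the degrees of freedom of the fit. DESeq2 1.42.0 and limma 3.58.1 (voom) were alternatives, with other scalings, filters and each library left out. The steps were tested on simulated data. No 2 libraries of a group agreed within counting noise (lowest chi-square per degree of freedom 4.90).

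The members and all gene lists, markers included, were chosen with earlier results of these data known, those of the fetal pancreas among them, so counts over a list are descriptions. Text names all 10 members, other TRP genes that passed or were among the 3 most abundant per length, partner genes that passed, and otherwise the 2 most abundant of each partner list, except where a gene is not reported here. Libraries are from separate animals, and p-values measure the spread between them.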

Additional observations from a re-analysis of the deposited data

Results flagged for a closer look

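Trpv2 in KO islets had 1 library far from the others. At 2.37 CPM, KO 845 stood above the remaining 4, which ran from 1.66 to 1.75 CPM, a gap of 0.875 of the group's range, above the 95% critical value of 0.71 for 5 samples. Of 16 groups checked this was the 1 found, and chance gives about 1 in 20 groups. Without KO 845 the log2 fold change of Trpv2 in islets was -0.115.

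The effect of genotype on Trpv2 differed between tissues by the interaction test, at -0.75 on the log2 scale (edgeR adjusted p = 0.0441). Trpv2 rose in KO pancreata (0.76) and was at -0.01 in KO islets. With no low-count filter and with limma-voom the adjusted p of the difference was 0.0637 and 0.0545.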

How the results depend on the processing

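In E16.5 pancreas the count of genes called was 959 (560 higher, 399 lower), with 3791 at an unadjusted p under 0.05. It was 1550 with DESeq2, 2070 (931 and 1139) in a fit of all 16 libraries, and 9558 (9512 higher, 46 lower) scaled to pan-epithelial genes. Library totals gave 958, split 779 and 179. Leaving out 1 library gave 0 to 1035 by edgeR: 0 without control 02 or 13 and 4 without 08 (2606, 3420 and 2923 by unadjusted p under 0.05). In islets the count was 22, with 1021 unadjusted; DESeq2 gave 112, and leaving out 1 library gave 5 to 26. The tissue comparison gave 12664 to 14418 calls, and the interaction 1137 (623 higher, 514 lower), or 907 with library totals (299 and 608). The causes were not tested.

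Trpv6 at E16.5 had an opposite sign with RLE factors (0.001), library totals (0.066), DESeq2 (0.007) and pan-epithelial scaling (0.386), and ranged from -0.278 to 0.318 without single libraries. Trpv4 was at 0.177 and Trpm4 at 0.276 (edgeR adjusted p = 0.0351) under pan-epithelial scaling, and Trpv4 ranged from -0.499 to 0.024 without single libraries (0.024 without KO 01). With that scaling Trpm2, Trpm5, Trpm7 and Trpc1 also passed. All 9 channels tested between tissues kept call and direction in 15 settings. Ordering E16.5 by CPM in place of RPKM kept 6 of 10 ranks; the other orders kept 8 to 10, one of them, with GENCODE transcript lengths, chosen after seeing the data. No paired analysis was possible because the groups share no animal numbers. Depth limits Trpv1 throughout and Trpv6 in islets.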

Other observations

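Genes whose levels followed those of Trpm2 and Trpm5 most closely from islet to islet were listed over the 10 islet libraries, after each genotype's mean was removed, among 13171 genes. For Trpm2 they were Kantr (Pearson r 0.966, Spearman rho 0.988), Srgap1 (0.959, 0.939) and Kifc3 (0.941, 0.964). For Trpm5 they were Ip6k1 (0.934, 0.903), Npepl1 (0.929, 0.939) and Coro2b (0.927, 0.830). The libraries share tissue, sex and age, and differences in depth or composition between them enter every pair. These are the highest of many and are given as a description.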
